A study of Arabidopsis thaliana with 6 samples.

Results

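Membrane ankyrin genes related to ACD6 were followed in Arabidopsis thaliana leaves 2 hours after a spray of salicylic acid (SA). The genes were taken by locus from a list of 34 ankyrin repeat loci of the ACD6 type and its relatives. The list was chosen with earlier results of these data known. Shares of members set beside those of all genes are therefore only descriptions. Of these, 20 had a probe set of their own on the array, out of 13286 genes measured by 1 probe set each. The SA group was sprayed with 1 mM SA in 0.01% Silwet, a wetting agent, and the mock group with 0.01% Silwet alone. Both groups were plants aged 3 to 4 weeks, with no genotype or accession stated in the labels, and each comprised 3 biological replicates on 1 array each. The labels do not say whether a replicate came from separate sowings or how many plants it pooled, so p-values measure the spread between these samples.

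Proteins of this family carry ankyrin repeats, which bind other proteins, in front of several membrane-spanning segments. ACD6 (ACCELERATED CELL DEATH 6) promotes SA accumulation and defence, and its gain-of-function allele gives small plants with spontaneous cell death. Its own transcript is known to rise with SA, so that ACD6 and SA form a positive loop. BDA1 (named ANK in the annotation) acts in immune signalling downstream of the receptor-like protein SNC2, and ITN1 acts in the response to salt. ACD6, BDA1 and ITN1 are among the 14 listed loci that were not analysed here. The probe set of AT4G03440 and AT4G03460 is shared between them and was not used. The other 12 loci are ACD6, BDA1, ITN1, AT4G03470, AT1G03670, AT1G14500, AT5G04690, AT5G54710, AT1G05640, AT1G07710, AT4G10720 and AT5G15500. These 12 had no probe set listed in the platform annotation, which leaves 8730 of the 22746 probe sets other than controls unlisted. Whether unlisted probe sets on the array measure these 12 loci was not tested. Relatives of ACD6 resemble each other in sequence, and whether a probe set also bound transcripts of another member was not tested. In whole leaves, fewer cells of a type and less RNA per cell cannot be told apart.

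Among the 3 measured mesophyll markers LHCB4.2, PRK and RCA, log2 signals lay between 12.65 and 14.11 in the 6 arrays, and no change passed the test. Markers of other tissues were also measured, 3 of the 7 listed for guard cells, 1 of trichomes, 1 of the vasculature and 1 of roots. None of them passed the test. Those for guard cells were FMA, MUTE and SPCH, with log2 signals between 5.36 and 7.31 in all arrays. KAT1, MYB60, HT1 and SLAC1 were not measured. PYK10, the root marker and 1 of 5 listed, had log2 signals of 5.55, 5.00 and 5.44 in mock replicates 1, 2 and 3 and of 6.62, 6.52 and 7.80 in SA replicates 1, 2 and 3. Its change of 1.65 ± 0.36 (SE) had an adjusted p of 0.0978, and of 0.0176 in the paired fit described below. The part of other cell types in the ankyrin results was not tested.

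AT4G14390 was the 1 member of the 20 that rose after SA in the fit on treatment alone. It is next to ACD6 on chromosome 4 among the protein-coding genes in the RefSeq annotation used. The log2 signals of AT4G14390 were 7.67, 7.45 and 7.56 in mock replicates 1, 2 and 3 and 9.23, 9.15 and 8.81 in SA replicates 1, 2 and 3. The groups did not overlap, and the lowest SA array lay more than 1 log2 unit above the highest mock array. The mean was 7.56 ± 0.11 (SD, n = 3) in mock and 9.06 ± 0.22 (SD, n = 3) in SA-treated leaves. The change was 1.50 ± 0.14 (SE) log2 units, or 2.83-fold (limma adjusted p = 0.0147). The call was lost without mock replicate 2 (adjusted p = 0.0979), mock replicate 3 (0.0749), SA replicate 1 (0.0502) or SA replicate 2 (0.0790), while the change stayed between 1.42 and 1.63. It was kept without mock replicate 1 (adjusted p = 0.0450) or SA replicate 3 (0.0427). Over all genes, the 217 calls on all arrays became 5, 15, 22 and 6 where the call was lost, in the order given. They became 57 and 24 where it was kept.

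The measured genes around AT4G14390 had small changes. AT4G14385 and AT4G14380 on 1 side had changes of 0.20 and 0.048 log2 units, and AT4G14410 and AT4G14420, beyond ACD6, of -0.20 and 0.046. None of these 4 passed the test, with adjusted p-values from 0.591 to 0.975. The probe set of AT4G14390 lies in a gene closely related to ACD6, and the contribution of ACD6 transcripts to its signal was not tested.

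AT4G14390 was the only 1 of the 20 members called at an adjusted p under 0.05, or 5.00% of them, against 1.63% of all genes tested. Rises were called for 1.04% and falls for 0.595% of all genes. Deviations from the group means correlated between the mock and SA arrays of a number, at 0.75, 0.46 and 0.55 across probe sets for numbers 1, 2 and 3. Between mock and SA arrays of different numbers, the correlations ran from -0.59 to 0.14. The numbers were therefore taken to pair the arrays, and a second, paired fit had the number as a block. It called 5 of the 20 members (25.0%), all of them rises, against 9.91% of all genes in either direction, 5.15% as rises and 4.76% as falls. The 4 members that it added were AT4G03450, AT1G10340, AT5G54700 and ANK1. With both arrays of number 1, 2 or 3 left out, the paired fit called 3 members (15.0%) each time, against 3.04%, 6.12% and 6.13% of all genes. AT4G14390 and AT1G10340 passed in all 3 of these fits, AT4G03450 passed without number 1, AT5G54720 passed without number 2 and without number 3, and AT5G54700 and ANK1 passed in none. The 3 fits share arrays with each other, and each has fewer residual degrees of freedom than the paired fit on all arrays.

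**Figure D1:**
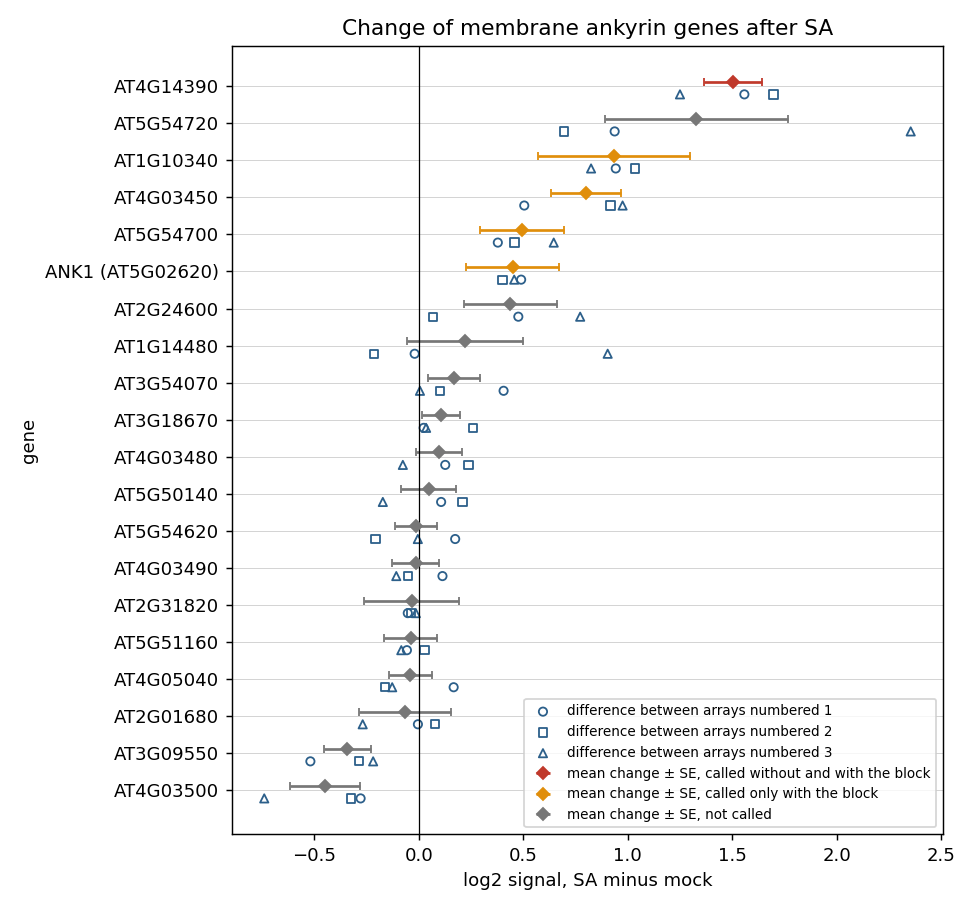
Change of each of the 20 membrane ankyrin genes, as the log2 signal in SA minus mock on the horizontal axis. Diamonds with bars give the mean change ± SE of the fit without the block, coloured by call, and open symbols give the difference between the arrays of each replicate number. AT4G14390 had the highest change at 1.50, and AT4G03500 the lowest at -0.45.

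AT4G03450 is the first measured gene of the run of ankyrin genes on chromosome 4 between AT4G03440 and AT4G03500. Its log2 signals were 9.78, 9.21 and 9.31 in mock replicates 1, 2 and 3 and 10.29, 10.13 and 10.29 in SA replicates 1, 2 and 3. All SA arrays lay above all mock arrays, and the SA arrays were closer together than the mock arrays. The change was 0.80 ± 0.17 (SE), or 1.74-fold. It missed the threshold in the unpaired fit (adjusted p = 0.0852) and was called in the paired fit (adjusted p = 0.0181).

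None of the other 3 measured genes of the run was called in either fit. AT4G03480 had log2 signals of 6.18, 6.22 and 6.46 in mock replicates 1, 2 and 3 and of 6.30, 6.46 and 6.38 in SA replicates 1, 2 and 3. AT4G03490 had 6.15, 6.05 and 6.27 in mock and 6.27, 5.99 and 6.16 in SA replicates 1, 2 and 3. In both genes the groups overlapped, with changes of 0.096 ± 0.11 (SE) and -0.015 ± 0.11 (SE). AT4G03500 had the lowest change of all members. Its signals were 6.03, 5.76 and 5.92 in mock and 5.75, 5.43 and 5.18 in SA replicates 1, 2 and 3. The groups did not overlap, though the highest SA array lay just under the lowest mock array. Its change of -0.45 ± 0.17 (SE) missed the threshold in the unpaired (adjusted p = 0.310) and the paired fit (adjusted p = 0.0856). AT4G05040, which lies apart from the run on the same chromosome, had signals between 7.53 and 7.77 in all 6 arrays and a change of -0.040 ± 0.10 (SE).

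On chromosome 5, AT5G54700 and AT5G54720 lie on either side of AT5G54710, and AT5G54620 lies next to BDA1. AT5G54720 had the second highest change of the members. Its log2 signals were 6.15, 7.09 and 6.32 in mock replicates 1, 2 and 3 and 7.09, 7.79 and 8.67 in SA replicates 1, 2 and 3. The highest mock array and the lowest SA array nearly coincided, so the groups overlapped. The differences between arrays of the same number were 0.94, 0.70 and 2.35, and the third was the largest. The mean change of 1.33 ± 0.44 (SE), or 2.51-fold, missed the threshold in the unpaired (adjusted p = 0.246) and the paired fit (adjusted p = 0.0684).

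AT5G54700 had signals of 4.53, 4.70 and 4.94 in mock and 4.91, 5.15 and 5.59 in SA replicates 1, 2 and 3. Its groups overlapped, but the SA array was higher for each number, by 0.38, 0.46 and 0.65. The change was 0.49 ± 0.20 (SE), or 1.41-fold, and only the paired fit called it (adjusted p = 0.0332, against 0.351 unpaired). AT5G54620 had signals of 4.17, 4.33 and 4.26 in mock and 4.35, 4.13 and 4.26 in SA replicates 1, 2 and 3. Its groups overlapped, and its change of -0.013 ± 0.10 (SE) was within the spread between replicates (adjusted p = 0.993). The table gives no detection calls, so whether signals this low exceed background cannot be told.

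**Figure D2:**
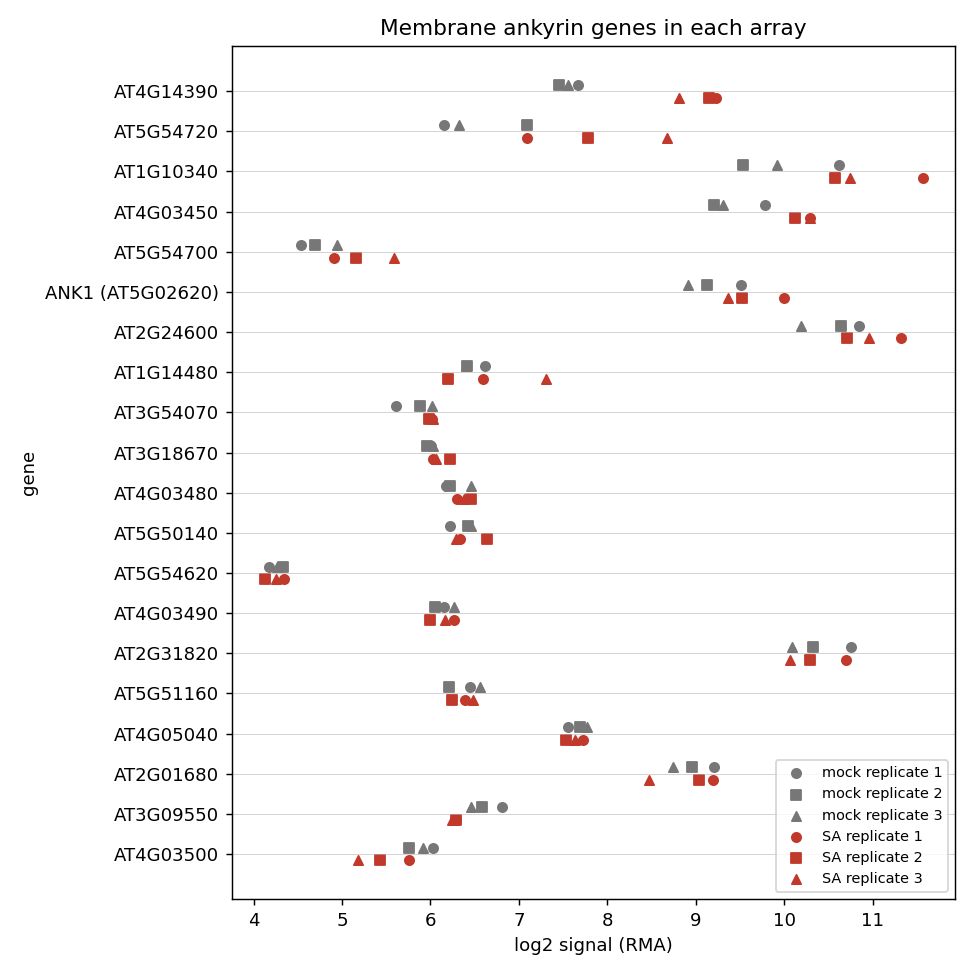
Log2 signals of the 20 membrane ankyrin genes in each array, on the horizontal axis, with genes ordered by their change. Grey symbols are the 3 mock arrays, red symbols the 3 SA arrays, and the shape gives the replicate number. In AT4G14390 the SA arrays lie between 8.81 and 9.23, all above the mock arrays at 7.45 to 7.67.

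AT1G10340 had the widest range of means by replicate number among the members, 1.04 log2 units. Its log2 signals were 10.62, 9.53 and 9.91 in mock replicates 1, 2 and 3 and 11.57, 10.57 and 10.74 in SA replicates 1, 2 and 3. Replicate 1 was the highest array in both treatments, and mock replicate 1 exceeded SA replicate 2, so the groups overlapped. Within each number the SA array was higher by a similar amount, 0.94, 1.04 and 0.82. The change was 0.93 on the log2 scale, or 1.91-fold, with a standard error of 0.36 in the unpaired and 0.087 in the paired fit. Only the paired fit called it, with an adjusted p of 0.00630 against 0.329. The 2 genes after it in order, AT1G10350 and AT1G10360, had changes of -0.41 and -0.92, which passed only in the paired fit (adjusted p = 0.0419 and 0.00588).

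Among the other dispersed members, AT2G24600 had log2 signals of 10.85, 10.64 and 10.19 in mock and 11.32, 10.71 and 10.96 in SA replicates 1, 2 and 3. The groups overlapped and the differences by number were uneven, at 0.48, 0.067 and 0.77. Its change of 0.44 ± 0.22 (SE), or 1.36-fold, missed the threshold in the unpaired (adjusted p = 0.486) and the paired fit (adjusted p = 0.146). AT1G14480 had signals of 6.62, 6.41 and 6.41 in mock and 6.60, 6.19 and 7.31 in SA replicates 1, 2 and 3. SA replicate 3 alone stood above the rest, and the change of 0.22 ± 0.28 (SE) turned to -0.082 without it. AT3G54070 had signals of 5.61, 5.88 and 6.02 in mock and 6.02, 5.98 and 6.03 in SA replicates 1, 2 and 3, with overlapping groups and a change of 0.17 ± 0.12 (SE). AT3G18670 and AT5G50140 had signals between 5.96 and 6.64 over all arrays, with changes of 0.11 and 0.048. For AT5G51160 the signals lay between 6.21 and 6.56 and the change was -0.038 ± 0.13 (SE). Adjusted p-values of these 4 genes were at least 0.689 in the unpaired and 0.432 in the paired fit.

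ANK1 (AT5G02620), an ankyrin-like gene, had log2 signals of 9.51, 9.13 and 8.91 in mock and 10.00, 9.53 and 9.37 in SA replicates 1, 2 and 3. The groups overlapped, and replicate 1 was highest in both treatments. The differences by number were nearly equal, at 0.49, 0.40 and 0.46. The change of 0.45, or 1.37-fold, had a standard error of 0.22 in the unpaired (adjusted p = 0.466) and 0.080 in the paired fit (adjusted p = 0.0290).

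In AT2G31820 the arrays parted by number and hardly by treatment. Its signals were 10.75, 10.33 and 10.08 in mock and 10.70, 10.29 and 10.07 in SA replicates 1, 2 and 3. Arrays of the same number differed by at most 0.053 between treatments, while the means by number spanned 0.65. The change of -0.035 did not pass in either fit, with standard errors of 0.23 and 0.079 (adjusted p = 0.992 and 0.864). AT2G01680 likewise had signals of 9.20, 8.96 and 8.74 in mock and 9.20, 9.04 and 8.47 in SA replicates 1, 2 and 3, with a change of -0.065 ± 0.22 (SE).

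AT3G09550 was lower in every SA array than in any mock array. Its log2 signals were 6.81, 6.58 and 6.46 in mock and 6.29, 6.29 and 6.24 in SA replicates 1, 2 and 3. The mock arrays were spread more widely than the SA arrays. The change of -0.34 ± 0.11 (SE), or 0.789-fold, missed the threshold in the unpaired (adjusted p = 0.246) and the paired fit (adjusted p = 0.0973).

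**Figure D3:**
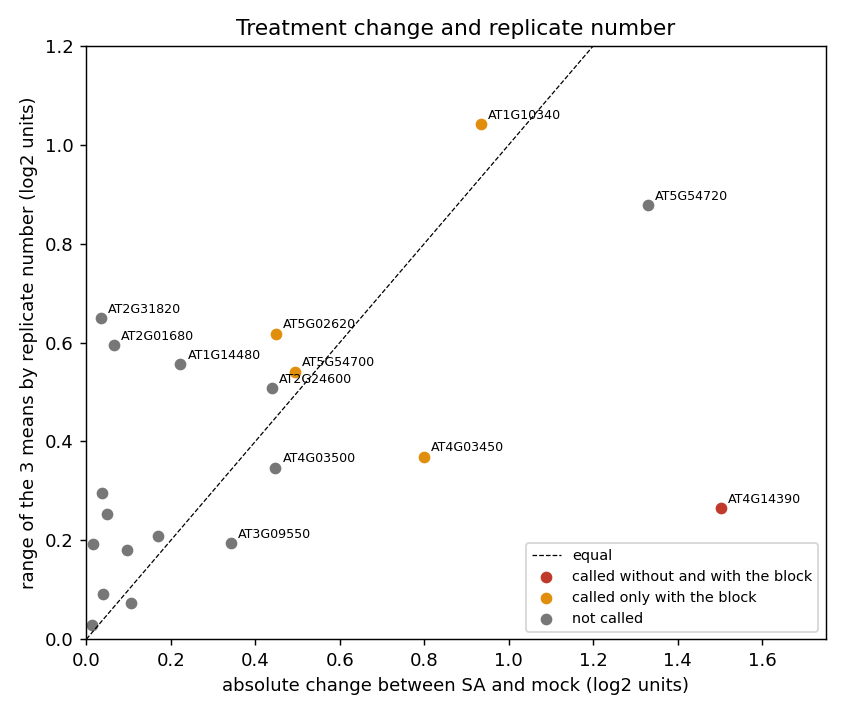
Absolute change between SA and mock (horizontal axis) against the range of the 3 means by replicate number (vertical axis), both in log2 units, for the 20 membrane ankyrin genes. Points above the dashed line of equality, 14 of 20, have the larger value by replicate number, as have 75.2% of all genes, and AT4G14390 lies far below it at 1.50 and 0.27.

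The range of the 3 means by replicate number exceeded the absolute change in 14 of the 20 members (70.0%), against 75.2% of all genes. A range over 3 means of 2 arrays tends to be wider by construction than a difference between 2 means of 3, so the share is read only against that of all genes, and it lay near it. The median range was 0.32 log2 units in the members and 0.27 over all genes. In 10 of the 20 members (50.0%) the arrays numbered 1 had the highest mean, against 37.0% of all genes. AFFX-DapX-3_at, a spike-in control, read 11.52 and 11.42 (log2) in the mock and SA arrays numbered 1, and from 8.27 to 8.44 in those numbered 2 and 3. It is 1 of 64 control probe sets, and values of the others are not given here. What the number marks is not stated in the labels. In a fit with a block for number 1 against the others, 3 members (15.0%) were called, AT4G03450, AT4G14390 and AT1G10340, against 5.15% of all genes. In the 4 arrays numbered 2 and 3 without a block, limma called 0 of the 20, against 0.0301% of all genes, and 7 of the 20 (35.0%) had an unadjusted p under 0.05, against 13.9%.

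As a list, the members had a median change of 0.10 log2 units, against -0.0077 over all genes. Their quartiles were -0.036 and 0.46, against -0.15 and 0.10 over all genes. Changes were above 0 in 12 of the 20 members (60.0%), against 48.0% of all genes. The median of the members varied by number, at 0.15, 0.089 and 0.00030 in the pairs numbered 1, 2 and 3. Over all genes it was 0.0049, -0.004 and -0.038 in these pairs. The SA array was the higher in all 3 pairs for 9 members (45.0%), against 20.4% of all genes, and the lower in all 3 for 3 members (15.0%), against 24.7%. A change of at least 2-fold upwards was measured in AT4G14390 and AT5G54720, or 10.0% of members, against 1.88% of all genes, and downwards in 0 members, against 0.956%.

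Separation of the groups was near the background. SA lay above mock in all arrays for 2 members (10.0%), against 8.57% of all genes, and below it for 2 members (10.0%), against 9.45%, which makes 20.0% of members and 18.0% of all genes. An unadjusted p under 0.05 was reached by 5 members with positive changes (25.0%), against 6.42% of all genes, and by AT4G03500 and AT3G09550 with negative changes (10.0%), against 7.40%. Together these were 35.0% of the members and 13.8% of all genes.

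**Figure D4:**
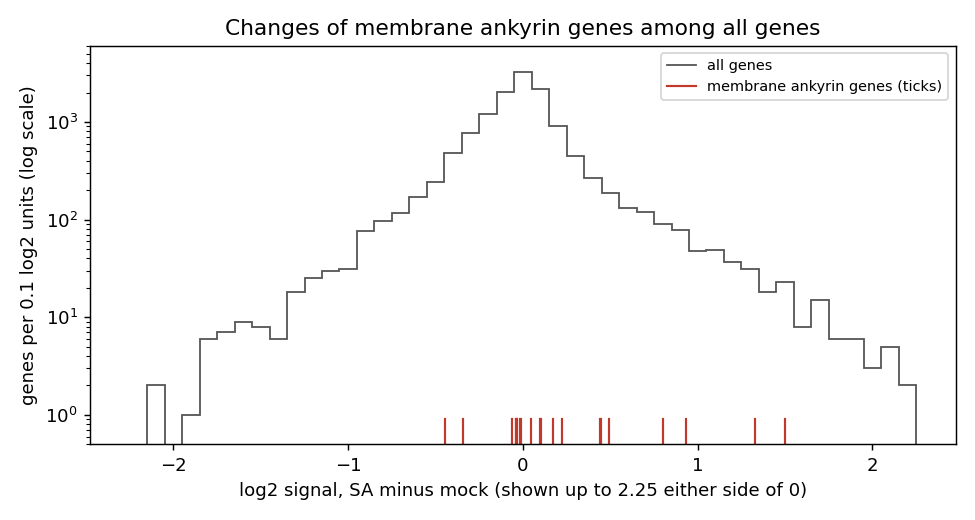
Distribution of the log2 change, SA minus mock, over all 13286 genes, as genes per bin of 0.1 on a log scale, with red ticks for the 20 membrane ankyrin genes. The ticks run from -0.45 to 1.50, and 12 of them lie above 0.

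Genes that act with ACD6 or in the SA loop were taken from a list of 28, of which 4 were measured. This list too was chosen with earlier results of these data known. UGT76B1, which glucosylates SA, and the glutaredoxin gene GRX480 rose in both fits. WRKY53, a transcription factor of defence and senescence, rose in the paired fit. Rises were thus called for 2 of the 4 unpaired and 3 paired, against 1.04% and 5.15% of all genes. The change of UGT76B1 was 6.43 ± 0.35 (SE; limma adjusted p = 0.00625 unpaired and 0.00282 paired). That of GRX480 was 3.43 ± 0.26 (SE; adjusted p = 0.0115 and 0.00282). WRKY53 had log2 signals of 9.98, 9.17 and 9.23 in mock and 11.35, 10.02 and 11.34 in SA replicates 1, 2 and 3, and its change was 1.45 ± 0.42 (SE; adjusted p = 0.185 unpaired and 0.0232 paired). SAG101, a partner of EDS1, had signals of 8.82, 8.25 and 7.38 in mock and 9.58, 8.18 and 8.26 in SA replicates 1, 2 and 3. Its groups overlapped, and the change of 0.52 ± 0.50 (SE) did not pass in either fit. The receptors FLS2, BAK1 and CERK1, whose abundance ACD6 is known to affect, and SNC2 were not analysed here.

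A list of 28 genes for ankyrin proteins of other kinds, such as NPR proteins, potassium channels, ubiquitin ligases and calmodulin-binding transcription activators, had 3 measured members. All 3 are calmodulin-binding transcription activators, so the other kinds were not analysed. AT3G16940 had log2 signals of 8.83, 8.50 and 8.10 in mock and 8.40, 7.80 and 7.43 in SA replicates 1, 2 and 3. The groups overlapped, and SA was lower within each number. Its change of -0.60 ± 0.29 (SE) had an adjusted p of 0.462 unpaired and 0.0209 paired. AT1G67310 and AT4G16150 had changes of -0.092 and -0.077 and did not pass in either fit.

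The 2 nearest measured genes on each side of the 5 members called in the paired fit were 3 further members, AT4G03480, AT4G03490 and AT5G54720, and 17 genes that are no members. Of the 3, AT5G54720 beside AT5G54700 had the change of 1.33 given above. The 17 other genes had changes from -0.92 to 0.20. The unpaired fit called 0 of the 17, with 4 at an unadjusted p under 0.05, against 1.63% and 13.8% of all genes. The paired fit called 3, AT1G10350, AT1G10360 and AT5G54660, all with negative changes, against 9.91% of all genes in either direction and 4.76% as falls.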

How the data were processed

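The deposited table holds log2 signals of 22810 probe sets in 6 arrays, made by the authors with RMA, per the submitters' processing notes. The RMA version is not given in the sources used here. RMA brings arrays close to a common distribution, which largely removes any change that most transcripts share. Array medians lay between 7.41 and 7.51.

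Control probe sets (64) were left out. Of the other 22746, the platform annotation lists 13513 with 1 gene, 503 with several and leaves 8730 unlisted. Matching to RefSeq loci (TAIR10.1) and keeping the probe set with the highest mean per locus gave 13286 genes; each of the 20 members had 1 probe set. SA minus mock was fitted with limma 3.58.1 in R 4.3.3 (lmFit, eBayes, treatment only) over all genes, with Benjamini-Hochberg adjustment and calls under 0.05. The median residual SD was 0.18 without and 0.11 with the replicate number as a block, with 4 and 2 residual degrees of freedom; the pairing comes from the correlations given above, not from the labels. The limma fits with and without the block were repeated on simulated data, where only the mean error of the estimated changes was checked.

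Members and lists were chosen with earlier results of these data known. Values in every array are given for members called in either fit, the 8 largest absolute changes and the 3 highest and 3 lowest mock means, as fixed by the rule, and also for AT4G03480, AT4G03490, AT1G14480, AT2G01680 and AT3G09550, chosen after their values were seen; listed genes are named when called in either fit, otherwise up to 4 by p. The locus of SNC2 was corrected from RefSeq synonyms after the files were read. No sequences were used here, so the planned grouping by protein identity and the promoter motifs were not run. Neighbouring genes, counts by pair, ranges by number and 5 alternatives were added after the values were seen: a block for number 1, the arrays numbered 2 and 3 alone, and the block without number 1, 2 or 3. The other alternatives covered the block, each array left out, median centring, 32 linear units added, a limit of 6 on the mean log2 signal, array weights, a variance trend and all probe sets.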

Additional observations from a re-analysis of the deposited data

How the results depend on the processing

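The number of members called, 1 of 20, became 5 with the replicate block, 2 with array weights (AT4G14390 and AT4G03450), 3 with a block for number 1 and 0 in the arrays numbered 2 and 3 alone; without 1 array it ran from 0 to 1, and with the block and without 1 number it was 3. It was 1 under centring, added units, the limit on dim genes, the variance trend and all probe sets. Over all genes the 217 calls became 1316 with the replicate block, 135 with 32 units added, 479 with array weights, 143 with a variance trend, 684 with a block for number 1 and 4 in the arrays numbered 2 and 3 alone. Tested over all 22746 probe sets, 334 probe sets were called, and 183 of the genes. The 217 calls ran from 5 to 57 without 1 array, and with the block and without number 1, 2 or 3 were 404, 813 or 815. Centring moved rises from 63.6% to 73.7% of calls and the median change over all genes from -0.0077 to 0.046. The cause of these moves was not tested. The median change of the members stayed above 0 in all alternatives. Its shift from the main value was smaller than the SD of the 3 pair medians, 0.074, in each.

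Of the named members, AT4G14390 kept a positive change throughout. So did AT4G03450, AT1G10340, AT5G54700, AT5G54720, ANK1, AT2G24600, AT4G03480, AT3G18670 and AT3G54070 in every alternative that held them. AT4G03500 and AT3G09550 kept a negative change in the same way. The other 8 members, with small changes, changed sign in some alternatives, none of them called in any fit. Centring turned AT4G03490, AT4G05040, AT5G54620, AT2G31820 and AT5G51160 to 0.039, 0.014, 0.041, 0.019 and 0.016, and array weights turned AT5G51160 to 0.0047. With the block and without number 2, AT4G03490, AT4G05040, AT5G50140 and AT5G54620 had 0.0026, 0.020, -0.033 and 0.085. With the block and without number 3, AT4G03490, AT4G05040, AT1G14480 and AT2G01680 had 0.031, 0.0031, -0.12 and 0.037. Without 1 array, AT4G03490 ran from -0.079 to 0.058, AT4G05040 from -0.096 to 0.010, AT1G14480 from -0.082 to 0.48, AT5G50140 from -0.061 to 0.11 and AT5G54620 from -0.064 to 0.045. AT2G01680 ran from -0.21 to 0.15, AT2G31820 from -0.21 to 0.15 and AT5G51160 from -0.14 to 0.040. The limit on dim genes left 16 of the 20 members in the test, and the arrays have no measure of signal over background. The number of arrays limits every value.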
